A study of Mus musculus with 12 samples.

Results

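Genes that decide whether a liver cell survives or dies were followed in the livers of mice without YAP1. They are 10 apoptosis and survival regulators, found by gene symbol among the 41743 genes of the deposited tables, and all 10 were present. *Bcl2*, *Bcl2l1* (BCL-XL) and *Mcl1* encode pro-survival proteins. *Bak1* encodes a pore-forming effector of cell death, and *Bid*, *Bbc3* (PUMA), *Bmf* and *Bcl2l11* (BIM) encode BH3-only death signals. *Fas* encodes the classical death receptor and *Tnfrsf12a* encodes Fn14, the receptor for TWEAK.

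RNA of whole livers was sequenced from 12 adult female mice, 3 in each of 4 groups. YAP1 KO mice carried *Foxa3*-Cre, *Yap1* fl/fl and a *ROSA*-stop fl/fl-EYFP reporter on the C57BL/6 background. YKTH (YAP1 KO TAZ Heterozygote) mice carried *Foxa3*-Cre with both *Yap1* alleles and 1 allele of *Wwtr1*, the gene for TAZ, disrupted, on a mixed C57BL/6-FVB background. Littermates without the knockout were the controls of each model and are called WT (C57BL/6) and WT (mixed), and which floxed alleles they carried is not given in the sources used here. *Foxa3*-Cre acts in the early foregut endoderm, which gives rise to hepatocytes and bile duct cells. Endothelial, stellate and immune cells of the same liver should keep *Yap1*, but this was not measured in separate cells here. The paper mentions evidence, not shown, that the Cre line may also act in the developing kidney, an organ of mesodermal origin. In whole liver, more cells of a type and more RNA per cell cannot be told apart. The *Wwtr1* allele, the mixed background, the separate set of animals and the smaller fall of *Yap1* in YKTH livers cannot be told apart either.

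Mitochondrial apoptosis is set by the balance inside the BCL2 family. Pro-survival proteins hold BAK and BAX in check, BH3-only proteins release that hold, and the pores then let cytochrome c out to start the caspases. Death receptors reach the same caspases from the cell surface, and in hepatocytes this route needs BID as a link to the mitochondria. Fn14 has no death domain. It is a small receptor known for its induction in injured liver and for its part in the growth of liver progenitor cells.

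The promoters of 4 members are shown first, because these members had the clearest changes or hold a match to a motif bearing on the deleted genes. YAP1 and TAZ act on DNA through TEAD proteins. Each window runs from 250 bases before to 50 bases after a RefSeq transcript start (GRCm38.p6), 5′ to 3′ on the strand of the gene. Capitals mark a match on either strand to the TEAD motif GGAATG or to the AP-1 motif TGANTCA, which do not overlap here.
*Tnfrsf12a*, chr17:23677400-23677699, minus strand: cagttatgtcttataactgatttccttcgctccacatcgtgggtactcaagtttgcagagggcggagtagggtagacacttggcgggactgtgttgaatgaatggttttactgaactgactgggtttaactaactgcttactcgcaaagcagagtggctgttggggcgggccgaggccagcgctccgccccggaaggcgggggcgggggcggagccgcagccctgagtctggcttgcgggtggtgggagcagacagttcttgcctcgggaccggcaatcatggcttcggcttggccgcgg
*Fas*, chr19:34290409-34290708, plus strand: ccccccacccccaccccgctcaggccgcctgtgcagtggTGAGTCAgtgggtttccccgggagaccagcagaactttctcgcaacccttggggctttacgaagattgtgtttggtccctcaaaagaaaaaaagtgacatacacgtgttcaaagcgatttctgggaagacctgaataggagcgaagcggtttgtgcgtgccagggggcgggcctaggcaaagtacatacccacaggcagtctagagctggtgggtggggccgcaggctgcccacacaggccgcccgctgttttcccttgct
*Mcl1*, chr3:95658471-95658770, plus strand: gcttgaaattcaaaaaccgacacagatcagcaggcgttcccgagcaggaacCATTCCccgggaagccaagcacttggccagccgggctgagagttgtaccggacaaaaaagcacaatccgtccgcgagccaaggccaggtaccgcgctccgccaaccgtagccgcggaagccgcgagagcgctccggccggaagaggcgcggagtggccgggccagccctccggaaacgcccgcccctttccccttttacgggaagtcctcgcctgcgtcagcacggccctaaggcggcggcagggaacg
*Bcl2l1*, chr2:152831679-152831978, minus strand: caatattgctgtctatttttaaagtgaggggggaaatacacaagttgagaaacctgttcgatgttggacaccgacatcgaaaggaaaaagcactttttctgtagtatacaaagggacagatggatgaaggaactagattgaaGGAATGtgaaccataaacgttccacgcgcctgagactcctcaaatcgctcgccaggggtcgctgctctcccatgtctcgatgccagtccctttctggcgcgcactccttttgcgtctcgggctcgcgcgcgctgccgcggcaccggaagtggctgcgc
All 10 members had at least 1 window, 17 windows in all. The TEAD letters were found in 2 of them, those of *Mcl1* (first base 199 bases before the start) and of 1 of the *Bcl2l1* starts (108 bases before). Of 32851 mouse promoter windows of the same length, 14.7% hold them. The AP-1 letters were found in 1 window, that of *Fas* (211 bases before the start), against 7.81% of all windows. The p53 half-site was searched as well and was found in 1 window, of *Bmf* (213 bases before the start), against 8.36% of all windows. The *Tnfrsf12a* window held none of these 3 motifs. A match of letters is a description and no evidence of binding.

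Levels are given as TPM (a share of all transcripts in a library that takes the length of each transcript into account) as deposited, as mean ± SD over the 3 livers of a group. Changes were tested on another scale, log2(scaled TPM + 1), because the TPM of most genes sat above WT in both models. Over all tested genes the median log2 fold change without scaling was 0.278 in YAP1 KO and 0.244 in YKTH livers, and after scaling it was -0.041 and -0.040. A log2 fold change is therefore a change relative to the other genes, and the added 1 makes it smaller for genes of low level. Genes that reached 1 TPM in 3 or more libraries of a comparison were tested with limma, p-values were adjusted after Benjamini and Hochberg over all of them, and an adjusted p under 0.05 counted as passing. Of the members, 9 were tested in each comparison and none of them passed the filter through 1 group alone. *Bcl2* stayed under 1 TPM in every liver and was not tested. Nothing in the sources says that the livers of a group came from separate litters, so p-values measure the spread between these animals.

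*Tnfrsf12a* had by far the largest change of the members. Its TPM were 78.7, 98.1 and 98.4 in the YAP1 KO livers (91.7 ± 11.3) and 3.76, 11.2 and 10.9 in their WT littermates (8.62 ± 4.204). In the YKTH livers they were 53.3, 68.6 and 63.3 (61.7 ± 7.78), and in their littermates 9.13, 9.47 and 6.85 (8.48 ± 1.43). The lowest liver of each model lay above every WT liver by a wide margin, and mean TPM was 10.7 times WT in YAP1 KO and 7.28 times WT in YKTH livers. On the scaled scale the log2 fold change was 3.05 (SE 0.34, adjusted p = 0.000375 by limma) and 2.43 (SE 0.16, adjusted p = 2.09e-05 by limma). The rise was 0.62 log2 units larger in YAP1 KO, with a 95% interval from -0.29 to 1.52 and an adjusted p of 0.999 by limma, so a difference in size between the models was not shown.

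The receptor's place among the members changed with it. In both WT groups *Tnfrsf12a* was 7th of 10 by mean TPM, with a range overlapping that of *Bmf* below it. In both models it was 2nd, next to *Mcl1*, and its range overlapped neither neighbour. *Mcl1* had the highest level in all 4 groups without overlap, and *Bcl2l11* and *Bcl2* were 9th and 10th in all 4. Among *Bak1*, *Bbc3*, *Bcl2l1* and *Fas*, the ranges of neighbours in the order overlapped in each group. Further apart in the order, *Bcl2l1* lay above *Bbc3* without overlap in YAP1 KO and WT (mixed) livers and above *Fas* in WT (mixed) livers. *Bid* and *Bmf* came below these 4 by mean TPM in every group.

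**Figure D1:**
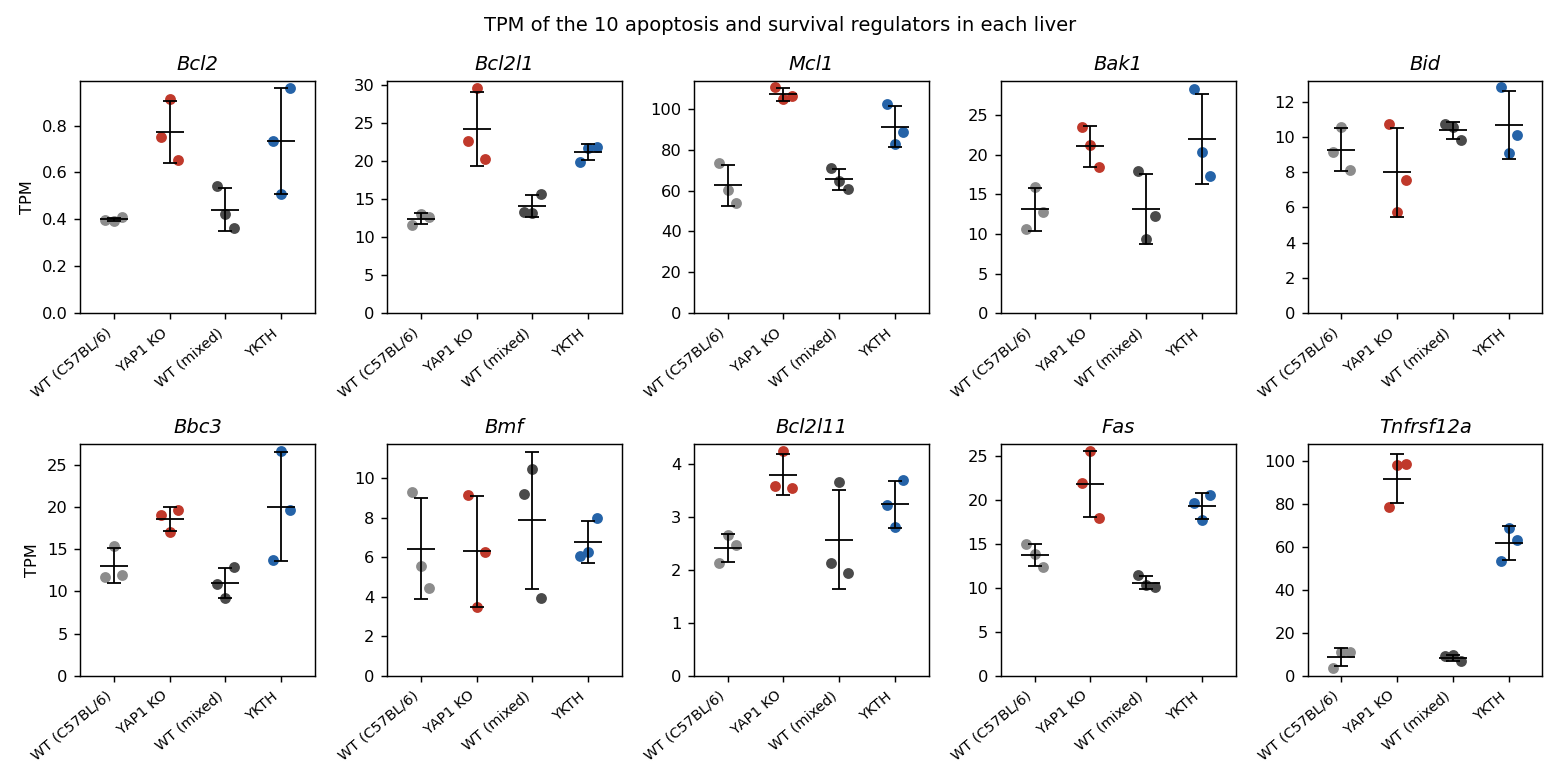
TPM (y axis, a scale of its own in each panel, starting at 0) of the 10 members in each liver by group (x axis). Points are livers, the long bar is the mean of 3 and the error bar its SD. *Tnfrsf12a* lies at 53.3 TPM or more in all 6 livers of the models and at 11.2 TPM or less in all 6 WT livers.

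*Fas*, the other receptor, was measured at 21.9, 25.6 and 17.98 TPM in YAP1 KO livers (21.8 ± 3.78) and at 14.95, 13.8 and 12.4 TPM in WT (C57BL/6) livers (13.7 ± 1.28). It was at 19.6, 17.7 and 20.6 TPM in YKTH livers (19.3 ± 1.47) and at 11.4, 10.3 and 10.04 TPM in WT (mixed) livers (10.6 ± 0.730). The groups of neither comparison overlapped in TPM. After scaling, *Fas* rose in YKTH livers (log2 0.51, SE 0.11, adjusted p = 0.00665 by limma). In YAP1 KO livers its log2 fold change of 0.28 (SE 0.16, adjusted p = 0.193 by limma) did not pass. The difference between the models was -0.23 (95% interval from -0.64 to 0.18, adjusted p = 0.999 by limma). The WT groups themselves stood apart here: *Fas* was 0.40 log2 units lower in WT (mixed) than in WT (C57BL/6) livers (SE 0.11), with an unadjusted p of 0.00676 and an adjusted p of 0.570 by limma. The WT groups did not overlap in TPM for *Fas*, for *Bcl2l1* and for 11.7% of all genes tested. Without scaling, *Fas* passed in both models, at 0.62 in YAP1 KO and 0.81 in YKTH livers.

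The pro-survival transcripts *Bcl2l1* and *Mcl1* both rose in YAP1 KO livers. *Bcl2l1*, whose protein BCL-XL guards the outer mitochondrial membrane of hepatocytes, was at 22.7, 29.7 and 20.3 TPM in YAP1 KO livers (24.2 ± 4.88) against 11.7, 13.0 and 12.7 TPM in WT (12.5 ± 0.710). Its log2 fold change was 0.55 (SE 0.16, adjusted p = 0.0291 by limma). In YKTH livers it was at 19.97, 21.8 and 21.9 TPM (21.2 ± 1.07) against 13.4, 13.2 and 15.8 TPM (14.1 ± 1.44), without overlap in TPM, and its log2 fold change of 0.26 (SE 0.13, adjusted p = 0.157 by limma) did not pass. The *Bcl2l1* call in YAP1 KO livers was lost when any of 4 livers was left out, YAP1 KO LM189 or each WT liver, with adjusted p of up to 0.0675 and log2 values from 0.36 to 0.64 over the leave-one-out fits. *Bcl2l1* was higher in WT (mixed) than in WT (C57BL/6) livers in TPM, without overlap, and overlapped after scaling (log2 0.11, SE 0.12, adjusted p = 0.9746 by limma).

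*Mcl1* encodes a short-lived pro-survival protein on which hepatocytes depend. It was at 110.7, 104.7 and 106.2 TPM in YAP1 KO livers (107.2 ± 3.12) and at 73.5, 60.2 and 53.9 TPM in WT (C57BL/6) livers (62.5 ± 9.997). YKTH livers held 102.2, 83.0 and 88.7 TPM (91.3 ± 9.85) and WT (mixed) livers 70.9, 64.7 and 60.9 TPM (65.5 ± 5.06). Every model liver was above every WT liver. The log2 fold change was 0.42 (SE 0.14, adjusted p = 0.0408 by limma) in YAP1 KO livers, which passed, and 0.15 (SE 0.10, adjusted p = 0.249 by limma) in YKTH livers, which did not. The YAP1 KO call was lost in 5 of the 6 leave-one-out fits, all but the one without WT LM75, with adjusted p of up to 0.135. For neither gene was a difference between the models shown: it was 0.29 for *Bcl2l1* (95% interval from -0.18 to 0.75) and 0.26 for *Mcl1* (from -0.10 to 0.63), with adjusted p of 0.999 by limma for both.

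*Bcl2*, the founding member of the family, was the least abundant. It was at 0.7497, 0.914 and 0.651 TPM in YAP1 KO livers against 0.399, 0.394 and 0.408 TPM in WT, and at 0.734, 0.508 and 0.960 TPM in YKTH livers against 0.542, 0.421 and 0.363 TPM. Mean TPM was 1.93 and 1.66 times WT, without overlap in YAP1 KO and with overlap in YKTH livers. Exact two-sided permutation tests of the TPM gave p = 0.1 and p = 0.2, and 0.1 is the smallest p that 3 livers against 3 allow. With no filter on low values, limma gave adjusted p of 0.117 and 0.370.

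Of the pro-death BCL2 family members, *Bid* fell in YAP1 KO livers on the scaled scale and the others did not pass in either model. *Bid*, the link from death receptors to mitochondria, was at 10.7, 5.74 and 7.55 TPM in YAP1 KO livers (7.997 ± 2.51) and at 9.13, 10.6 and 8.14 TPM in WT (9.28 ± 1.23), so the groups overlapped in TPM. After scaling they did not, and the log2 fold change was -0.55 (SE 0.17, adjusted p = 0.0399 by limma). In YKTH livers *Bid* was at 12.8, 9.12 and 10.1 TPM (10.7 ± 1.91) against 10.7, 10.6 and 9.82 TPM (10.4 ± 0.486), with a log2 fold change of -0.27 (SE 0.12, adjusted p = 0.112 by limma). The *Bid* values hang on the scaling: without it they were -0.22 (adjusted p = 0.411 by limma) in YAP1 KO and 0.03 (adjusted p = 0.900 by limma) in YKTH livers. The YAP1 KO call was also lost in 5 of 6 leave-one-out fits, all but the one without YAP1 KO LM74, with adjusted p of up to 0.128. Without YKTH LM225, *Bid* passed in YKTH livers as well (log2 -0.36, adjusted p = 0.0437 by limma).

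*Bak1*, which forms the mitochondrial pore, was at 23.5, 21.2 and 18.5 TPM in YAP1 KO livers (21.1 ± 2.53) against 10.6, 15.95 and 12.8 TPM in WT (13.1 ± 2.68). YKTH livers held 28.4, 20.4 and 17.4 TPM (22.1 ± 5.68) against 17.9, 9.32 and 12.2 TPM (13.2 ± 4.37). The groups were apart in YAP1 KO and overlapped in YKTH livers. On the scaled scale the log2 fold changes of 0.32 (SE 0.14, adjusted p = 0.120 by limma) and 0.42 (SE 0.21, adjusted p = 0.158 by limma) did not pass, and without scaling both did, at 0.66 and 0.72. *Bak1* shares 177 and 437 exonic bases with 2 gene models of *Ggnbp1* on the opposite strand, which reached at most 6.08 and 6.39 TPM. The *Ggnbp1* model with the larger maximum fell, by 0.99 in YAP1 KO and 0.92 in YKTH livers (adjusted p = 0.00617 and 0.0282 by limma), the latter call being lost without scaling (-0.68, adjusted p = 0.0653). *Bid* shares 628 exonic bases with *Bcl2l13* on the opposite strand, which reached at most 17.4 TPM and whose log2 fold changes were -0.08 and -0.16 (adjusted p = 0.694 and 0.319 by limma). Whether reads were counted by strand is not given in the sources used here, so reads of these overlaps may belong to either gene.

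The BH3-only gene *Bbc3*, a p53 target, was at 19.1, 17.0 and 19.7 TPM in YAP1 KO livers (18.6 ± 1.41) against 11.7, 15.4 and 11.9 TPM in WT (13.0 ± 2.08), without overlap. In YKTH livers it ranged widely, with 13.7, 26.6 and 19.7 TPM (20.01 ± 6.44) against 10.9, 9.22 and 12.8 TPM (10.97 ± 1.81). Its log2 fold changes were 0.15 (SE 0.13, adjusted p = 0.386 by limma) and 0.48 (SE 0.24, adjusted p = 0.158 by limma), and without YKTH LM225, the lowest liver of its group, the YKTH value was 0.74 (adjusted p = 0.0157 by limma).

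*Bcl2l11* and *Bmf* respond to stress and loss of attachment in many cell types. *Bcl2l11* was low, with 3.595, 4.25 and 3.55 TPM in YAP1 KO livers against 2.13, 2.66 and 2.46 TPM in WT, and 3.23, 2.80 and 3.69 TPM in YKTH livers against 2.12, 3.66 and 1.94 TPM. Its groups were apart in YAP1 KO and overlapped in YKTH livers, and the log2 fold changes of 0.22 (SE 0.14) and 0.04 (SE 0.20) did not pass (adjusted p = 0.263 and 0.908 by limma). *Bmf* was at 9.13, 3.49 and 6.24 TPM in YAP1 KO livers against 9.30, 5.56 and 4.42 TPM in WT, and at 6.04, 6.26 and 7.99 TPM in YKTH livers against 9.19, 10.5 and 3.92 TPM. It varied as much within groups as between them, with log2 fold changes of -0.36 (SE 0.31) and -0.39 (SE 0.29) and adjusted p of 0.393 and 0.329 by limma. Without WT (mixed) LM230, the lowest liver of its group, the YKTH value was -0.75 (adjusted p = 0.0170 by limma).

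**Figure D2:**
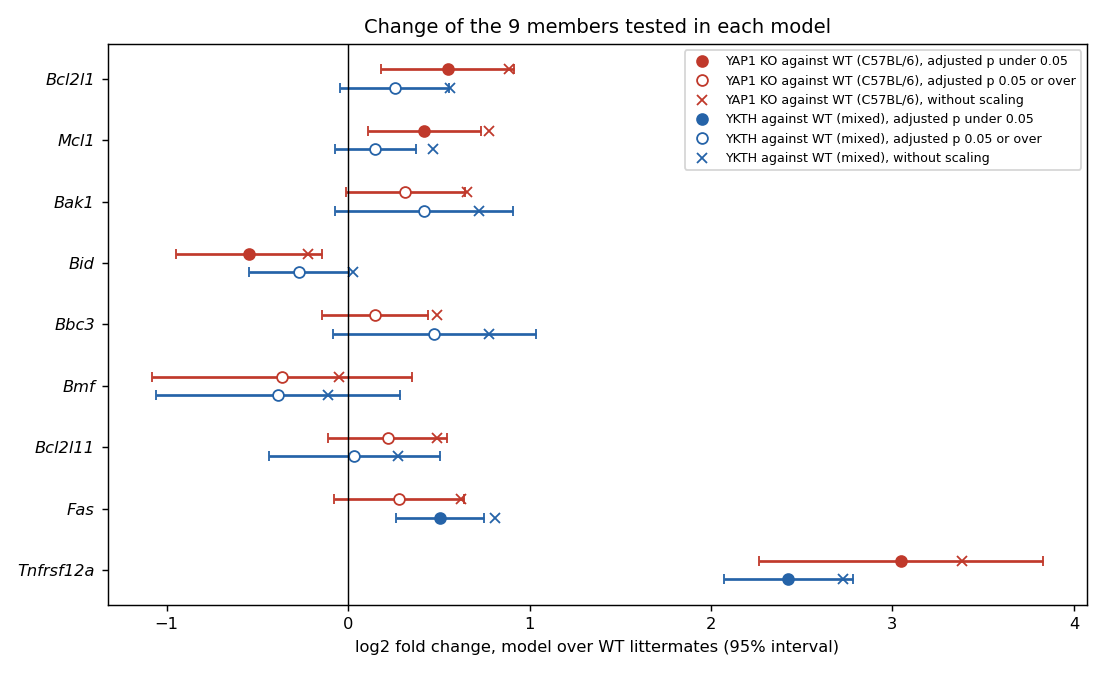
log2 fold change (x axis) of the 9 tested members (y axis) in YAP1 KO (red) and YKTH livers (blue) against their WT littermates, with 95% intervals of the limma fit. Filled points have an adjusted p under 0.05, and crosses give the value without scaling. *Tnfrsf12a* stands at 3.05 and 2.43, while the other members lie between -0.55 and 0.55.

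Counted over the members, 4 of 9 passed in YAP1 KO livers, 3 higher (*Bcl2l1*, *Mcl1*, *Tnfrsf12a*) and 1 lower (*Bid*). This is 44.4% of the members tested, beside 36.7% of all 11704 genes tested (18.8% higher, 18.0% lower). In YKTH livers 2 of 9 passed, both higher (*Fas*, *Tnfrsf12a*), which is 22.2% beside 38.2% of all 11741 genes (19.2% higher, 19.0% lower). With no filter on low values *Mcl1* and *Bid* missed the threshold in YAP1 KO livers (adjusted p = 0.0569 and 0.0717 by limma). The YAP1 KO count was 1 without YAP1 KO LM189, WT LM192 or WT LM193 and 2 without WT LM75 or YAP1 KO LM191, and the YKTH count was 4 without YKTH LM225. The median log2 fold change over the tested members was 0.280 in YAP1 KO and 0.256 in YKTH livers. Without scaling 7 and 6 members passed, all higher, and the share of higher genes among all calls moved from 51.1% to 84.0% and from 50.2% to 82.2%. In TPM as deposited, 8 of the 10 members, *Bcl2* among them, did not overlap with WT in YAP1 KO livers and 5 of the 10 in YKTH livers, all of them higher. Of all genes tested, 56.7% and 54.5% did not overlap in TPM, 47.5% and 44.4% of all genes being higher.

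Between the models, limma called a difference for 0 of 9 members, and at an unadjusted p under 0.05 it also called 0 (the lowest was 0.140, for *Mcl1*). Over all 12159 genes 0.0658% were called, and 4.58% had an unadjusted p under 0.05. The estimates ran from -0.33 for *Bbc3* (95% interval from -0.98 to 0.32) to 0.62 for *Tnfrsf12a*, and the widest interval was that of *Bmf*, from -1.03 to 1.06. Between the WT groups 0 of 9 members were called, beside 0.216% of 11126 genes, and *Fas* was the member with an unadjusted p under 0.05.

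Summed by role, pro-survival transcripts (*Mcl1*, *Bcl2l1* and *Bcl2*) came to 127.1 to 135.2 TPM in YAP1 KO livers and 67.0 to 85.6 TPM in WT. The 5 pro-death BCL2 family transcripts (*Bak1*, *Bid*, *Bbc3*, *Bmf* and *Bcl2l11*) came to 51.7 to 66.0 TPM and 39.7 to 50.2 TPM. In the YKTH comparison the first sum was 105.3 to 122.9 TPM against 77.1 to 84.9 TPM and the second 58.8 to 65.2 TPM against 40.8 to 50.8 TPM. In TPM both sums were thus higher in both models without overlap, as were the 47.5% and 44.4% of single genes given above. On the scaled scale, which was added after seeing the data, the pro-death sum in YAP1 KO livers overlapped with WT (47.9 to 53.8 against 45.0 to 55.3 scaled TPM). The pro-survival sum stayed apart there (109.3 to 125.2 against 76.1 to 99.9). In YKTH livers the scaled pro-survival sum was 95.7 to 104.0 against 88.9 to 89.8 and the pro-death sum 54.3 to 59.2 against 47.5 to 53.6, both without overlap. A ratio of sums within a liver is not touched by the scaling. It was 2.03, 2.62 and 2.29 in YAP1 KO livers (2.31 ± 0.293) and 1.99, 1.47 and 1.69 in WT (1.72 ± 0.265), where the lowest knockout liver and the highest WT liver lay close together. In YKTH livers it was 1.91, 1.61 and 1.90 (1.81 ± 0.168), against 1.67, 1.81 and 1.89 in their littermates (1.79 ± 0.111), with 2 YKTH livers just above the WT range and 1 just below it. *Mcl1* made up 77.4% to 85.9% of the pro-survival sum in every liver, so the ratio is mainly one of *Mcl1*. Without *Mcl1* the mean ratio was 0.441 in YAP1 KO and 0.293 in WT (C57BL/6) livers, and 0.351 in YKTH and 0.328 in WT (mixed) livers. These ratios are of transcripts, are given as a description and were not tested.

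**Figure D3:**
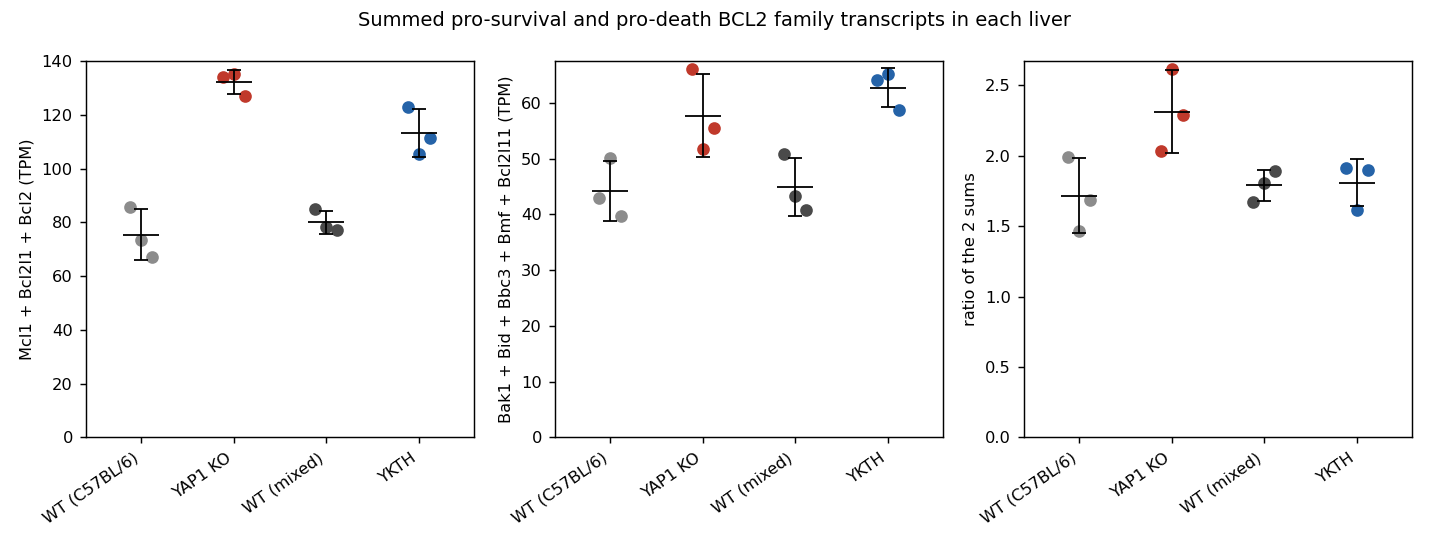
Summed TPM of the 3 pro-survival members (left), of the 5 pro-death BCL2 family members (middle) and the ratio of the sums (right) in each liver by group, with the mean and SD of 3 livers, all axes starting at 0. Both sums are higher in the models in TPM, although the scaled pro-death sum overlaps with WT in YAP1 KO livers (50.7 against 50.1 on average), and the ratio averages 2.31 in YAP1 KO against 1.72 in WT and 1.81 in YKTH against 1.79 in WT livers.

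The rest of the pathway was followed in 55 further genes in 10 lists. In YAP1 KO livers 23 of 46 tested genes passed, 18 higher and 5 lower (50%), and in YKTH livers 27 of 47, 21 higher and 6 lower (57.4%), with median log2 fold changes of 0.168 and 0.257. Without scaling the split was 26 higher and 1 lower in each model. All genes tested had 36.7% (18.8% higher) and 38.2% (19.2% higher) past the threshold. Some listed genes were tested because the livers of a model alone reached 1 TPM, so a rise was built into their selection: 5 in YAP1 KO (*Bcl2a1d*, *Pmaip1*, *Tnfrsf10b*, *Casp4* and *Apaf1*) and 4 in YKTH livers (*Bcl2a1a*, *Tnfrsf10b*, *Casp4* and *Casp12*). Their values in those comparisons are a description. Without them, a count added after seeing the data, 13 were higher and 5 lower of 41 in YAP1 KO (43.9%, median log2 fold change 0.075) and 17 were higher and 6 lower of 43 in YKTH livers (53.5%, median 0.104). In both models 20 passed, 16 higher in both, 4 lower in both and 0 in opposite directions, and without the genes just named 10 were higher and 4 lower in both. The share of all tested genes that passed in both models was not computed. These joint counts are therefore a description and no result about apoptosis genes. The reduced counts of each comparison are not free of this selection. The median WT liver was also under 1 TPM for *Birc5* in both comparisons and for *Bcl2a1d*, *Pmaip1* and *Apaf1* in the YKTH comparison. These were kept there, although a rise was partly built into their selection too. A difference between the models was called for 0 of 48 by limma, and 2 of them (*Casp4* and *Endog*) had an unadjusted p under 0.05. The YAP1 KO count was 13 to 15 when a YAP1 KO liver was left out (lowest without LM189), and the YKTH count was 17 without WT (mixed) LM227, 16 without YKTH LM250 and 14 without YKTH LM251.

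Among the other BCL2 family genes, both pore-forming relatives of *Bak1* rose in both models. *Bok* went from 4.87 ± 0.186 to 28.1 ± 8.67 TPM in YAP1 KO (log2 1.95, SE 0.16, adjusted p = 7.85e-05 by limma) and from 6.03 ± 1.23 to 24.1 ± 6.44 TPM in YKTH livers (log2 1.52, SE 0.24, adjusted p = 0.00191 by limma). *Bax*, the partner of *Bak1*, rose by 0.45 (adjusted p = 0.0387 by limma) and 0.58 (adjusted p = 0.00728 by limma). Of the other BH3-only genes *Pmaip1* (NOXA) had log2 fold changes of 1.02 and 1.27, and *Bad* and *Bik* did not pass. The *Pmaip1* level was under 1 TPM in all WT (C57BL/6) livers and had a median of 0.304 TPM in WT (mixed) livers (highest 1.51 TPM). The pro-survival *Bcl2a1b* and *Bcl2a1d* rose by 2.08 and 1.497 in YAP1 KO and by 2.29 and 1.17 in YKTH livers, and their transcripts are near-identical copies (the whole of *Bcl2a1b* is covered by *Bcl2a1d* at 90% identity or more), so which copy gave the reads is uncertain. The YKTH call of *Bcl2a1d* was lost after quantile normalization (0.92, adjusted p = 0.0805 by limma).

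Of the 10 other receptors and ligands, 6 were tested in each model and 4 rose in each. *Tnfrsf10b*, the mouse TRAIL receptor, went from 0.184 ± 0.0801 to 3.67 ± 1.38 TPM in YAP1 KO and from 0.280 ± 0.0714 to 2.87 ± 0.447 TPM in YKTH livers (log2 1.77 and 1.44), and it was tested only because of the levels in the models. *Tnfrsf21* (DR6) rose by 0.80 and 1.002, and *Tnfrsf1a*, the main TNF receptor, by 0.61 and 0.57. *Tnfsf12*, which encodes TWEAK, the ligand of Fn14, was looked up after its values were seen. It was at 24.0 to 34.2 TPM in YAP1 KO livers against 16.7 to 21.8 TPM (log2 0.19, SE 0.13, adjusted p = 0.288 by limma) and at 25.8 to 33.8 TPM in YKTH livers against 16.8 to 19.5 TPM (log2 0.40, SE 0.11, adjusted p = 0.0234 by limma). *Fasl*, the FAS ligand, stayed at 0.570 TPM or less in all 12 livers and was not tested.

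Downstream of the receptors, *Cflar*, which encodes the caspase-8 inhibitor c-FLIP, fell by 0.63 and 0.72 (without scaling by 0.28, adjusted p = 0.111 by limma, in YAP1 KO livers, a call lost), and *Traf3*, an adaptor of TNF receptors, rose by 0.74 in both models. The caspases named by size of change among those past the threshold in both models were *Casp12* (log2 2.94 and 2.70), *Casp4* (0.76 and 2.57) and *Casp1* (1.19 and 0.71), the last of which lost its YKTH call after quantile normalization (0.53, adjusted p = 0.0694 by limma). *Casp4* in both models and *Casp12* in YKTH livers were tested only because of the levels in the models. *Casp1* (chr9:5298508-5307290), *Casp4* (chr9:5308828-5336783) and *Casp12* (chr9:5345430-5373032) lie on the same chromosome as *Yap1* (chr9:7931999-8004596). The bearing of this position on their changes was not tested. The initiators *Casp8* and *Casp9* passed in neither model, and *Casp6* was lower in both, except without scaling (-0.23 and -0.22, adjusted p = 0.232 and 0.210 by limma). *Apaf1*, the scaffold of the apoptosome, had log2 fold changes of 1.14 and 0.95. *Endog*, a mitochondrial nuclease, fell by 1.06 and 0.64, and its YKTH call was lost without scaling (-0.33, adjusted p = 0.0867 by limma). All 3 necroptosis genes rose in both models: *Mlkl* (1.38 and 1.57), *Ripk3* (0.77 and 0.89) and *Zbp1* (0.54 and 1.04). After quantile normalization *Mlkl* alone passed in both, since *Ripk3* (0.52, adjusted p = 0.0758 by limma) missed the threshold in YAP1 KO livers and *Zbp1* in both models (0.53 and 1.04, adjusted p = 0.0503 and 0.0516 by limma). Of the 5 inhibitors of apoptosis 1 was higher in each model, and of the 3 nuclease and repair genes 1 was lower in YAP1 KO livers and 0 passed in YKTH livers.

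*Casp4* came nearest to a difference between the models. It was at 3.42, 2.18 and 1.32 TPM in YAP1 KO livers against 0.732, 0.553 and 0.636 TPM, and at 13.1, 8.09 and 12.8 TPM in YKTH livers against 0.758, 0.702 and 0.791 TPM. All YKTH livers were above all YAP1 KO livers. The difference was -1.80 log2 units (SE 0.29, adjusted p = 0.0526 by limma), which missed the threshold. Without YAP1 KO LM74 it was -1.97 (adjusted p = 0.0107 by limma) and without YKTH LM250 -1.98 (adjusted p = 0.0217 by limma), and both passed. The change in YAP1 KO livers was not past the threshold without WT LM192 or WT LM193 (log2 0.72 and 0.77, adjusted p = 0.0751 and 0.0673 by limma), nor after quantile normalization (0.47, adjusted p = 0.114 by limma).

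**Figure D4:**
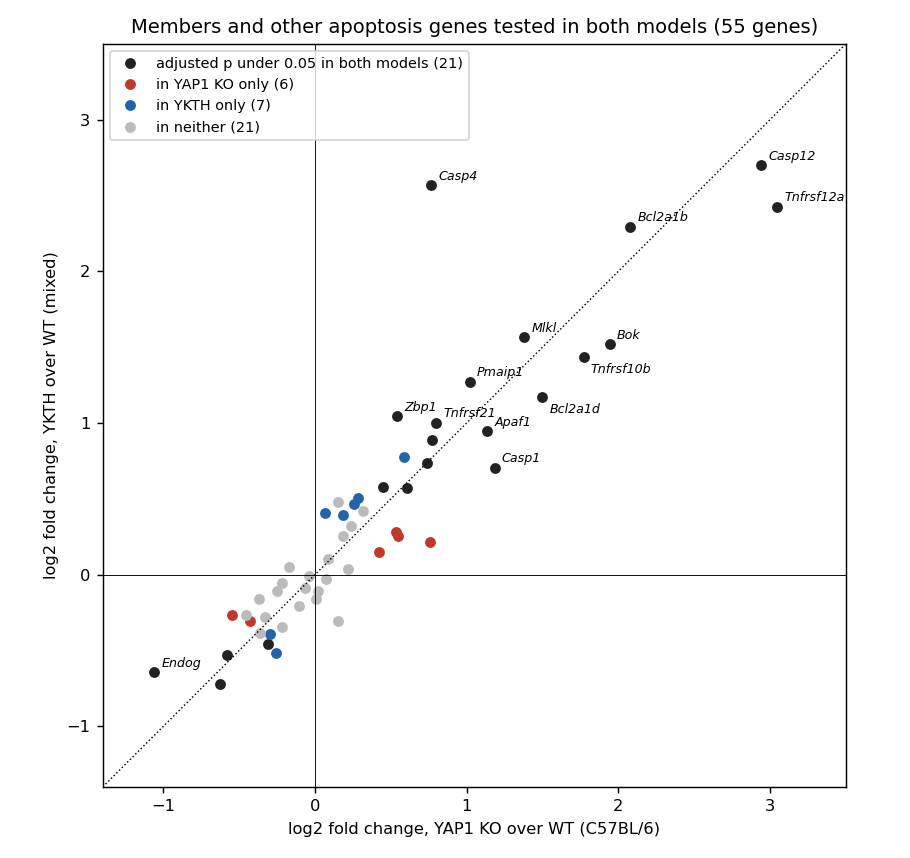
log2 fold change in YAP1 KO (x axis) against that in YKTH livers (y axis) for the 55 members and other apoptosis genes tested in both comparisons. Colour gives the comparisons in which limma passed the threshold (21 genes in both, 6 in YAP1 KO, 7 in YKTH, 21 in neither), and the dotted line marks equal change. The share of all tested genes that passed in both was not computed. *Tnfrsf12a* and *Casp12* lie at the far upper right near the line and *Casp4* above it.

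The tissue and genotype labels were checked. Hepatocyte markers such as *Alb* summed to the highest level of all marker lists in each group, and no marker of theirs was at 0, while 4 of the 8 were lower in each model. *Yap1* was at 1.67 to 3.72 TPM in YAP1 KO livers against 28.2 to 30.5 TPM, and at 8.63 to 11.5 TPM in YKTH livers against 31.0 to 33.2 TPM. The fall was larger in YAP1 KO livers, with a difference of -1.59 log2 units (SE 0.24, adjusted p = 0.0326 by limma). *Wwtr1* was at 13.3 to 16.7 TPM against 6.26 to 6.83 TPM and at 11.5 to 14.1 TPM against 7.73 to 8.38 TPM, so that YKTH livers, with 1 allele disrupted, did not lie below their littermates. Levels of 14442 to 15047 genes were above 0 in a library. Markers of several other cell types also differed between the models and their WT littermates. The 6 macrophage markers were all higher in both models and summed to 486.8 to 763.3 TPM in YAP1 KO and 750.1 to 944.8 TPM in YKTH livers, against 205.1 to 253.9 TPM and 184.5 to 390.4 TPM. Of the 8 markers of stellate cells and fibroblasts 5 were higher and 1 was lower in YAP1 KO and 5 were higher in YKTH livers, with sums of 394.5 to 504.1 TPM and 327.5 to 412.3 TPM against 137.3 to 161.9 TPM and 119.3 to 150.5 TPM. The 6 biliary markers summed to 325.4 to 744.5 TPM in YAP1 KO and 100.7 to 218.0 TPM in YKTH livers against 28.9 to 55.0 TPM and 43.3 to 60.1 TPM, with 2 of 4 tested higher in each and 1 lower in YKTH livers. *Spp1* made up most of each sum, with 302.8 to 725.3 TPM in YAP1 KO and 84.4 to 208.1 TPM in YKTH livers. *Sox9* was also higher in both models, and *Krt19* overlapped with WT in both. *Epcam* overlapped in YAP1 KO livers and was lower in YKTH livers (0.240 to 0.544 against 1.65 to 3.36 TPM). It was tested in the YKTH comparison only because of the levels in the WT livers, so a fall was built into its selection. In the paper, CK19 staining showed no bile ducts within the livers of either model. Neutrophil markers summed to 44.6 to 47.8 TPM and 10.4 to 48.5 TPM against 7.58 to 13.3 TPM and 4.10 to 6.39 TPM, with 3 of 3 tested higher in YAP1 KO and 1 of 3 in YKTH livers. *Ly6g* was at 0 in all livers of YKTH and of both WT groups and reached at most 0.339 TPM in YAP1 KO livers. Sums for T, NK and B cells (6.74 to 19.4 TPM over the 12 livers) overlapped between each model and its WT, with 0 of 4 tested markers called in YAP1 KO and 1 of 5 higher in YKTH livers. Of these, *Cd3g* (1.52 to 2.24 TPM in YKTH against 0.693 to 0.913 TPM in WT (mixed) livers) was tested there only because of the YKTH levels. A rise was thus built into its selection. Sums for endothelial cells (73.5 to 124.6 TPM) overlapped as well, with 2 of 6 lower in each model and 1 higher in YKTH livers. The part of these cells in the changes of the members was not tested.

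Over the 12 livers, the genes whose scaled levels ran most like *Tnfrsf12a* were *Lmna* (Pearson r = 0.988), which encodes lamin A/C, *Sowahb* (0.988) and *Frk* (0.985), of 12158 genes compared. *Fas* ran most like *Ms4a4d* (0.950), *Bcl2l1* like *Mgst3* (0.928), *Mcl1* like the metallothionein gene *Mt2* (0.912) and *Bak1* like *Bcl3* (0.940). For *Bid* the nearest gene was *Zkscan7* (0.949), for *Bmf* *Bivm* (0.899), for *Bbc3* *Alg3* (0.893) and for *Bcl2l11* *Nln* (0.881). These correlations are a description, over 12 points that fall into 4 groups and share their scaling.

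In the files (GRCm38) all 10 members have the coordinates of GENCODE M21, where they are protein-coding genes. *Tnfrsf12a* lies at chr17:23675445-23677468 and *Bak1* at chr17:27019810-27029009, both on the minus strand of the same chromosome. *Bcl2l1* (chr2:152780668-152831728, minus), *Bmf* (chr2:118528757-118549687, minus) and *Bcl2l11* (chr2:128126038-128162547, plus) share chromosome 2. The other members are *Bcl2* (chr1:106538178-106714274, minus), *Mcl1* (chr3:95658788-95663176, plus), *Bid* (chr6:120891930-120916853, minus), *Bbc3* (chr7:16308393-16318205, plus) and *Fas* (chr19:34290666-34327772, plus).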

How the data were processed

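Whole livers of 12 female mice (4 groups of 3) were profiled by RNA-seq. The authors mapped the reads to GRCm38 in CLC Genomics Workbench, which also made the gene counts, and the values the authors deposited are TPM per gene and mouse. Their own comparison columns (fold changes, p-values and false discovery rates, made with edgeR) were not used. TPM keep no depth, so the depth of each library is unknown and the spread between 3 mice is the only error. In each library TPM sum to 1000000. Of the TPM columns, 0 lacked a sample, and 0 pairs of libraries held identical values.

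Libraries of a fit were brought to 1 scale by an unweighted trimmed mean of log ratios (the outer 30% of ratios and 5% of mean levels removed on each side), then log2(scaled TPM + 1) was taken. limma 3.58.1 (R 4.3.3; lmFit, eBayes with a trend) was run two-sided on genes that reached 1 TPM in 3 or more libraries. Each model was fitted with its own littermates, the WT groups together, and the models were set against each other by an interaction contrast over 12 libraries. Exact permutation tests used scipy 1.17.1, and near copies were sought with blastn 2.17.0 (at least 90% identity over 30% of a transcript). On simulated data changed by 1 log2 unit, the fit recovered 76% of 104 changed genes in the YAP1 KO comparison (11704 genes), 81.5% of 92 in the YKTH comparison (11741 genes) and 50% of 110 for the difference (12159 genes). The changed genes were few and were drawn from genes above a low level, with normal noise. In the data 36.7% and 38.2% of genes passed in the model comparisons, so recovery there may differ, above all for genes of low level. Promoter windows are from RefSeq.

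The members, the lists of other genes and the tests were chosen with earlier results of these data known. All members are named. Of each other list, at most 3 genes that passed in both models, those with the largest mean absolute log2 fold change, are named with values, and others are named where marked or where a small count is spelled out. Some caspase results are not reported here. Alternatives were another pseudocount (0.1), filter (none, 5 TPM), scaling (none, quantile), variance shrinkage, threshold (0.01), 1 fit of all libraries, and each mouse left out. Applying them to *Casp4* was decided after seeing the data.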

Additional observations from a re-analysis of the deposited data

How the results depend on the processing

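*Tnfrsf12a* passed the threshold in all 14 alternatives in both models (log2 2.62 to 3.38 in YAP1 KO and 2.33 to 2.73 in YKTH livers), and *Fas* in all 14 in YKTH livers (0.43 to 0.81). The count of 4 members in YAP1 KO livers became 2 with no filter on low values, 7 without scaling, 1 at an adjusted p under 0.01, and 1 to 3 when a mouse was left out. The count of 2 members in YKTH livers became 6 without scaling, and 2 to 4 when a mouse was left out (4 without YKTH LM225). *Mcl1* passed in YKTH livers after quantile normalization (log2 0.34, adjusted p = 0.0439 by limma), and *Bmf* without WT (mixed) LM230 (-0.75). Of the 55 other apoptosis genes, the 23 called in YAP1 KO livers became 14 at an adjusted p under 0.01 and 13 to 21 when a mouse was left out, and the 27 called in YKTH livers became 15 and 14 to 23. Where a model mouse was left out, a gene needed its 3 libraries from fewer animals and 41 to 43 of them were tested. For the difference between the models, the 0 other genes became 1 (*Casp4*) after quantile normalization, with robust variance shrinkage, and 0 to 1 when a mouse was left out (1 without YAP1 KO LM74 or YKTH LM250). *Casp4* passed in 4 of 19 alternatives (adjusted p 0.0107 to 0.289). The cause of these changes was not tested. No called member changed sign. No analysis paired by litter was possible because the sources used here do not say which mice share a litter. With 3 mice a group, changes much under 1 log2 unit can be missed.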
